A study of Mus musculus with 6 samples.

Results

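The 10 Toll-like receptor genes Tlr1, Tlr2, Tlr3, Tlr4, Tlr5, Tlr6, Tlr7, Tlr8, Tlr9 and Tlr13 were followed in bulk RNA sequencing of stimulated osteocyte cultures. They were taken by gene symbol from a count table of 56748 mouse genes, and all 10 were found. The study's methods describe the isolation from long bones of C57BL/6 mice aged 7 weeks. The marrow was flushed out and the bone pieces were digested with trypsin, collagenase and EDTA. The cells were cultured for 7 days and then received lipopolysaccharide (LPS) at 10 ng/mL. After 3 h, aluminum hydroxide at 20 µg/mL was added for another 3 h. All 6 libraries received both agents and no unstimulated library was analysed here, so the values describe stimulated cells only.

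The groups were 3 libraries from wild-type mice (WT) and 3 from conditional knockout mice (cKO), in which both Gsdmd alleles are floxed and Cre is driven by the Dmp1 promoter. This promoter is known from osteocytes and late osteoblasts, so a deletion would not be expected in other cells of the culture. Gsdmd encodes gasdermin D, the pore-forming protein of pyroptotic cell death. The study's methods name the WT mice as C57BL/6J and describe no floxed or Cre littermates as controls for these cells. The strain background of the cKO mice is not given, and for their age the methods say only that mice were matched. It is not given in the sources used here whether the replicates were separate cultures or animals, so p-values measure the spread between these libraries, which may be technical.

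Toll-like receptors are membrane proteins that bind microbial molecules through leucine-rich repeats and signal through an intracellular TIR domain. Those at the cell surface bind lipids and proteins of bacteria, while those in endosomes bind nucleic acids. All of them except Tlr3 signal through the adapter Myd88, whereas Tlr3 uses Ticam1 (TRIF), and Tlr4, the receptor of LPS, uses both. Macrophages carry most of these receptors, and cells of the bone lineage are also known to respond to LPS.

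The library labels were checked first. Gsdmd had 609, 699 and 549 counts in the WT libraries and 885, 937 and 1045 in the cKO libraries. It was therefore higher in the libraries labelled cKO, with a log2 fold change of 0.69 (SE 0.08, edgeR adjusted p = 2.27e-06). No loss of Gsdmd transcript was thus seen in the bulk RNA, and whether it was lost in the cells with Cre was not tested. The exons removed are not given, and reads from the remaining exons and from cells without Cre are counted too. Throughout, cKO means the libraries labelled cKO. Xist, the transcript of the inactive X chromosome, had 0 to 4 counts in WT and 44817 to 51216 in cKO. The Y-linked genes Ddx3y, Eif2s3y, Uty and Kdm5d were read in every WT library and had 0 counts in every cKO library, so sex and genotype cannot be told apart. Of 6 osteocyte markers only Pdpn passed the filter on low counts, Sost had 0 counts in every library and Dmp1 had 0, 0 and 4 counts in WT and 2, 6 and 4 in cKO. The osteoblast markers Col1a1, at a mean of 5802 counts per 1000000 (CPM) in WT and 3650 in cKO, and Ibsp, at 1.73 and 6.92, were present. The macrophage markers summed to between 1203 and 1350 CPM in WT and between 6584 and 6912 in cKO. All 15 of the 16 that were tested were higher in cKO, by log2 fold changes of 2.20 to 4.25 with a median of 3.01. Csf1r, the receptor of the macrophage growth factor, had a mean of 26.1 CPM in WT and 234.9 in cKO, Adgre1 had 36.4 and 237.7, and Ptprc, the pan-leukocyte gene, had 13.3 and 104.3. The part of these cells and of sex in the values below was not tested. In bulk RNA a larger number of cells of a type and more RNA per cell cannot be told apart.

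Of the 10 receptors, 9 had higher transcript levels in cKO than in WT, 0 were lower, and Tlr5 did not pass the test (edgeR quasi-likelihood test, adjusted p below 0.05). Across all 17146 tested genes, 20.1% were called higher, 19.2% lower and 39.3% in either direction. In each of the 9, every cKO library lay above every WT library, which held for 25.3% of all tested genes, with the reverse for 23.9%. The median log2 fold change of the 10 receptors, given as cKO over WT, was 1.82, beside 0.00771 over all tested genes. The differences fell over a wide range, from 0.17 for Tlr5 to 3.52 for Tlr9. For 6 receptors, namely Tlr1, Tlr2, Tlr7, Tlr8, Tlr9 and Tlr13, the log2 fold change was at least 1, and 0 were at -1 or below. Under this limit the share of all tested genes was 6.56% on the higher side and 4.64% on the lower. All 10 passed the filter on low counts, and Tlr9 did so only through the cKO libraries, since 0 of 3 WT libraries reached the required 0.231 CPM.

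**Figure D1:**
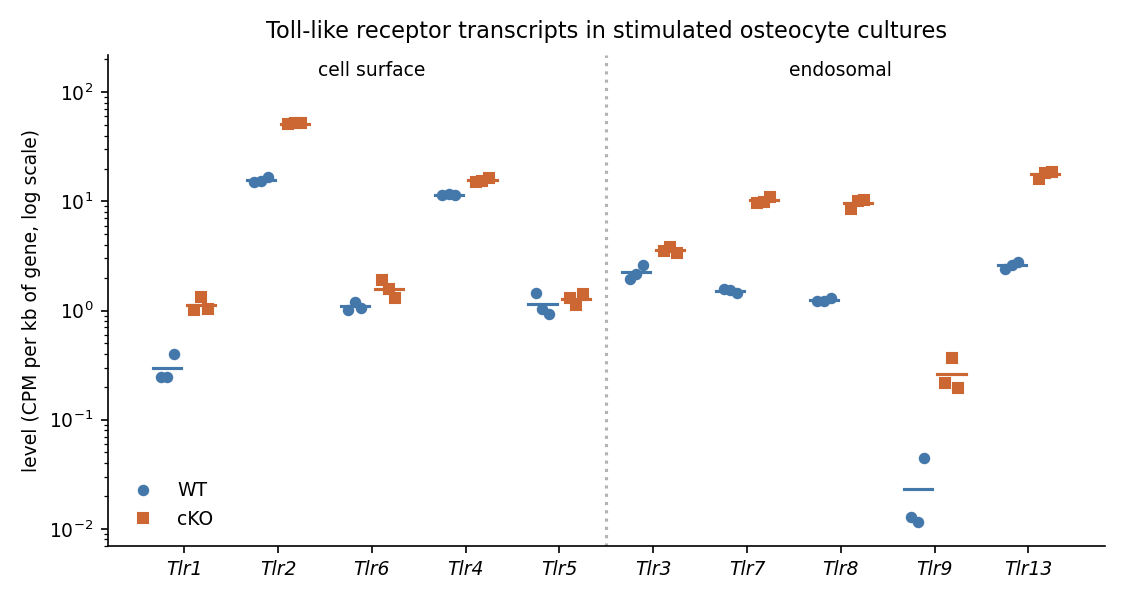
Level of each receptor transcript in CPM per kb of gene length on a log scale, in 3 WT libraries (circles) and 3 cKO libraries (squares), with the mean of each group as a line. With the deposited gene lengths Tlr2 sits highest in both groups, Tlr7, Tlr8 and Tlr13 shift together between the groups, and only the points of Tlr5 overlap.

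Among the surface receptors, Tlr2 forms heterodimers with Tlr1 or Tlr6 and so binds triacylated or diacylated bacterial lipopeptides. Tlr2 had 45.3, 46.0 and 50.3 CPM in the WT libraries and 153.5, 156.4 and 157.4 in the cKO libraries. The groups lay far apart in relation to their spread (47.2 ± 2.67 and 155.8 ± 2.03, SD, n = 3 each), with a log2 fold change of 1.72 (SE 0.05, edgeR adjusted p = 1.56e-14). Tlr1 was a low transcript, with 37, 41 and 52 counts in WT and 141, 178 and 156 in cKO. Its mean was 0.996 ± 0.298 CPM in WT and 3.75 ± 0.627 in cKO, a log2 fold change of 1.92 (SE 0.26, edgeR adjusted p = 1.07e-05), close to that of its partner Tlr2. Tlr6 had 3.78, 4.49 and 3.94 CPM in WT and 7.08, 5.81 and 4.82 in cKO. Its groups did not overlap but came close, and its log2 fold change of 0.53 (SE 0.17, edgeR adjusted p = 0.0202) was lost as a call when WT replicate 1 or cKO replicate 1 was left out (0.47, adjusted p = 0.0736, and 0.38, adjusted p = 0.14). The partners of Tlr2 were thus both higher in cKO, Tlr1 by about the same factor as Tlr2 and Tlr6 by less, and the difference between them was not tested.

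Tlr1 and Tlr6 lie side by side on the minus strand of chromosome 5 (GRCm39, chr5:65082022-65090906 and chr5:65109374-65117440), 18467 bases apart, and each carries its whole coding sequence in 1 exon. The pair is close enough in sequence to matter for counting. The longest stretch common to both is 229 bases long and lies within the coding exon of each gene. It is printed here, from the GRCm39 reference, because a read pair that falls wholly inside it cannot be given to either gene by sequence alone.

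Tlr1 at chr5:65082880-65083108 and Tlr6 at chr5:65111171-65111399, minus strand: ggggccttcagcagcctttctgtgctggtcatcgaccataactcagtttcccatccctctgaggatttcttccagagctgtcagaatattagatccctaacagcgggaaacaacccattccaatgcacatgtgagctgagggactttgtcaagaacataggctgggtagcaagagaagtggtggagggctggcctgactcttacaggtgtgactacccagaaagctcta

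Of all 150-base windows of its annotated transcripts, 4.13% of those of Tlr1 were found in Tlr6 as well and 2.89% of those of Tlr6 in Tlr1. Read pairs from these windows make the values of Tlr1 and Tlr6 uncertain, by an amount that was not tested. No 150-base window of Tlr2, Tlr4, Tlr5, Tlr7, Tlr8, Tlr9 or Tlr13 occurred in another annotated gene. Tlr3 shared 1.95% of its windows with Gm45542, an antisense RNA gene that had at most 2 counts in any library.

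Tlr4, which binds LPS and was thus the receptor addressed by the stimulus, differed by less between the groups than Tlr2, a comparison of the 2 log2 fold changes that was not tested. It had 63.1, 65.0 and 63.6 CPM in WT and 84.2, 86.0 and 91.6 in cKO. The libraries of each group were close together and the groups did not overlap, with a log2 fold change of 0.45 (SE 0.05, edgeR adjusted p = 8.62e-07). Tlr4 lies on chromosome 4 (chr4:66745821-66848521, plus strand), where an unnamed long noncoding RNA gene of the same strand overlaps it without sharing exon bases. Tlr5 binds bacterial flagellin. Its transcript had 7.51, 5.40 and 4.84 CPM in WT and 6.75, 5.83 and 7.40 in cKO, so that WT replicate 1 lay above all cKO libraries. No difference was detected, with a log2 fold change of 0.17 (SE 0.17, edgeR adjusted p = 0.469).

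Compared per kb of gene length within each library, the ratio of Tlr2 to Tlr4 was 1.32, 1.31 and 1.46 in WT and 3.36, 3.35 and 3.17 in cKO. With the merged exon lengths of the reference annotation in place of the deposited lengths, it was 0.916, 0.902 and 1.01 in WT and 2.32, 2.32 and 2.19 in cKO. The ratio was thus higher in every cKO library than in every WT library with both lengths, whereas which of the 2 receptors led in WT depended on the length.

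Among the endosomal receptors Tlr3, which binds double-stranded RNA, stood apart from the others. It had 10.1, 11.3 and 13.7 CPM in WT and 18.3, 20.0 and 17.5 in cKO, a log2 fold change of 0.67 (SE 0.11, edgeR adjusted p = 8.44e-05). Its gene (chr8:45848702-45864117, minus strand) is also the least compact of the family, with 68.3% of its coding bases in the largest coding exon, against 83.0% for Tlr4 and at least 98.5% for each other receptor.

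Tlr7, Tlr8 and Tlr13 bind single-stranded RNA, Tlr13 being a receptor of bacterial ribosomal RNA, and all 3 lie on the X chromosome. Tlr7 (chrX:166087925-166113554) and Tlr8 (chrX:166025692-166047325) are neighbours on the minus strand, 40599 bases apart, while Tlr13 (chrX:105186810-105204099, plus strand) lies far from both. Tlr7 had 6.42, 6.31 and 5.95 CPM in WT and 39.8, 40.5 and 44.7 in cKO, a log2 fold change of 2.74 (SE 0.08, edgeR adjusted p = 2.21e-14). Tlr8 had 4.38, 4.37 and 4.66 CPM in WT and 30.6, 36.4 and 36.6 in cKO, a log2 fold change of 2.95 (SE 0.10, edgeR adjusted p = 8.53e-14). Tlr13 had 10.4, 11.3 and 12.1 CPM in WT and 69.7, 78.8 and 80.3 in cKO, with a log2 fold change of 2.76 (SE 0.07, edgeR adjusted p = 5.53e-15). All 3 thus differed by 6.68- to 7.73-fold, with no overlap between the groups. The part of macrophage transcripts, whose markers differed by a median of 3.01 on the log2 scale, was not tested.

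Tlr9, the receptor of unmethylated CpG DNA (chr9:106099797-106104082, plus strand), was close to the limit of detection. It had 2, 2 and 6 counts in WT and 32, 51 and 31 in cKO. The mean level was 0.0798 ± 0.0648 CPM in WT and 0.908 ± 0.326 in cKO, and its log2 fold change of 3.52 had the largest standard error of the family (0.61, edgeR adjusted p = 0.000159). Leaving out each library in turn gave 3.18 to 4.33 on the log2 scale, the highest without WT replicate 3, which held 6 of the 10 counts in WT. Tlr9 is known from B cells and plasmacytoid dendritic cells. Of 6 B cell markers, Blnk, which B cells share with myeloid cells, was the only one to pass the filter, at a mean of 1.67 CPM in WT and 14.3 in cKO. The defining B cell genes Ms4a1, with 0 counts in every library, and Pax5, with 13, 29 and 8 counts in WT and 2, 6 and 2 in cKO, did not follow it. The B cell markers summed to 1.533 to 2.499 CPM in WT and 14.13 to 14.99 in cKO. Of 7 dendritic cell markers, Zbtb46 and Itgax passed the filter, and Itgax, which macrophages share, was higher (0.774 and 5.57 CPM). Flt3 and Siglech had 0 counts in every library, and the list summed to 2.83 to 3.47 CPM in WT and 6.10 to 9.30 in cKO. The part of these cells in the value of Tlr9 was not tested, nor was that of macrophages, whose markers differed by a median log2 fold change of 3.01.

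**Figure D2:**
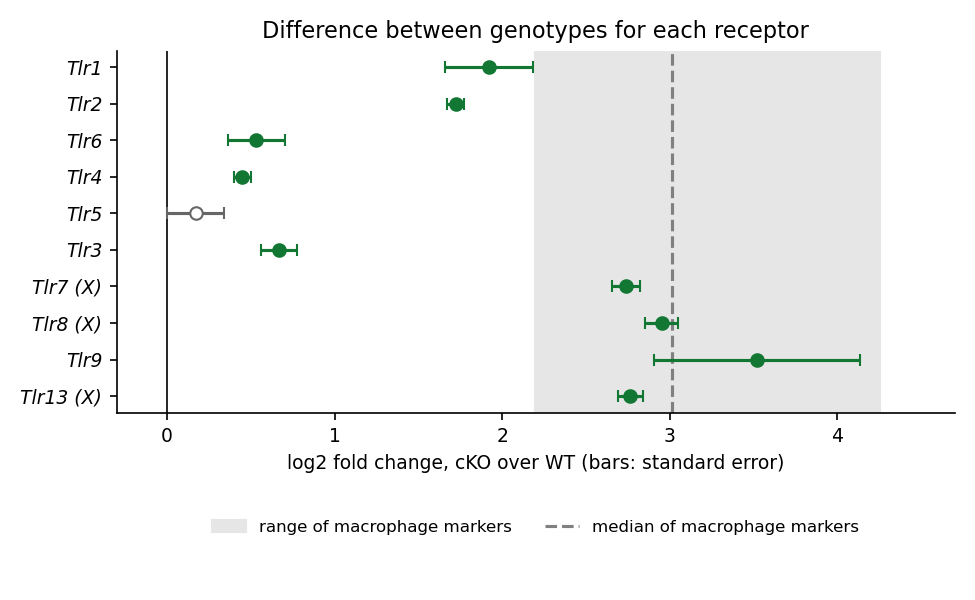
Log2 fold change of each receptor, cKO over WT, with its standard error (bars), receptors that passed the test filled and Tlr5 open. The grey band gives the range of the 15 tested macrophage markers (2.20 to 4.25) and the dashed line their median (3.01). Tlr7, Tlr8, Tlr9 and Tlr13 lie within the band, and the other 6 below it.

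The genes whose pattern over the 6 libraries was most like that of Tlr2, the receptor with the highest level per length, were Itga10 (a collagen-binding integrin), Cyth1 and Cd14. The likeness is the root mean square difference of the centred log2 values, and it was 0.0260, 0.0296 and 0.0296. Cd14 is the surface protein that passes LPS and lipopeptides on to Tlr4 and Tlr2. For Tlr9, the receptor with the largest fold change, the nearest genes were Tlr1 (0.119), ENSMUSG00000121137 (0.144) and Arhgap19 (0.153), and the comparison is coarse because the pseudocount of 0.25 exceeds the level of Tlr9 in WT. Both rankings were taken over 13875 genes and include the difference between the groups.

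Between genes, levels were compared in CPM per kb of the deposited gene length. In WT the order was led by Tlr2 (15.7 ± 0.884, SD, n = 3) and Tlr4 (11.5 ± 0.177), with a gap to Tlr13 (2.61 ± 0.199) and Tlr3 (2.25 ± 0.356), which overlapped each other. Tlr7 followed at 1.53 ± 0.0600. Tlr8 (1.25 ± 0.0464), Tlr5 (1.14 ± 0.271) and Tlr6 (1.09 ± 0.101) came next, and each overlapped its neighbour in this order. Tlr1 (0.298 ± 0.0890) and Tlr9 (0.0229 ± 0.0186) were last. In cKO, Tlr2 led at 51.7 ± 0.673, and Tlr13 (17.7 ± 1.34) reached the level of Tlr4 (15.7 ± 0.688), with overlapping libraries. Tlr7 (10.2 ± 0.646) and Tlr8 (9.63 ± 0.953) also overlapped and both now lay above Tlr3 (3.57 ± 0.242). Tlr6 (1.58 ± 0.304), Tlr5 (1.28 ± 0.151) and Tlr1 (1.12 ± 0.187) overlapped as neighbours, and Tlr9 (0.261 ± 0.0938) was last.

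The order at the top of WT depended on the length used. The table gives Tlr2 a length of 3014 bases, whereas the merged exons of the reference annotation cover 5499. With reference lengths for all receptors, Tlr4 (9.12) stood above Tlr2 (8.59) in WT, while Tlr2 (28.3) stayed above Tlr4 (12.5) in cKO. In cKO, Tlr13 then stood at 16.1 ± 1.22 and Tlr4 at 12.5 ± 0.545, so how close these came also depended on the length. Fold changes within a gene do not depend on its length.

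Summed over the 10 receptors with the deposited lengths, the level was 37.4 ± 1.28 CPM per kb in WT and 112.8 ± 3.81 in cKO, a ratio of 3.02. The sum and its shares depend on these lengths, which give Tlr2 3014 bases where the reference annotation has 5499. The make-up of this sum differed between the groups. The X-linked receptors Tlr7, Tlr8 and Tlr13 held 14.4% ± 0.129 of it in WT and 33.3% ± 1.35 in cKO, while Tlr4 held 30.8% ± 1.11 and 13.9% ± 0.325. The lipopeptide receptors Tlr1, Tlr2 and Tlr6 together kept similar shares, with 45.0% to 46.8% in WT and 47.1% to 49.6% in cKO. Endosomal receptors as a class made up 20.5% ± 0.772 in WT and 36.7% ± 1.27 in cKO. None of these shares overlapped between the groups. The exact two-sided permutation test gave p = 0.1 for each, which is the smallest p that 3 libraries against 3 allow.

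**Figure D3:**
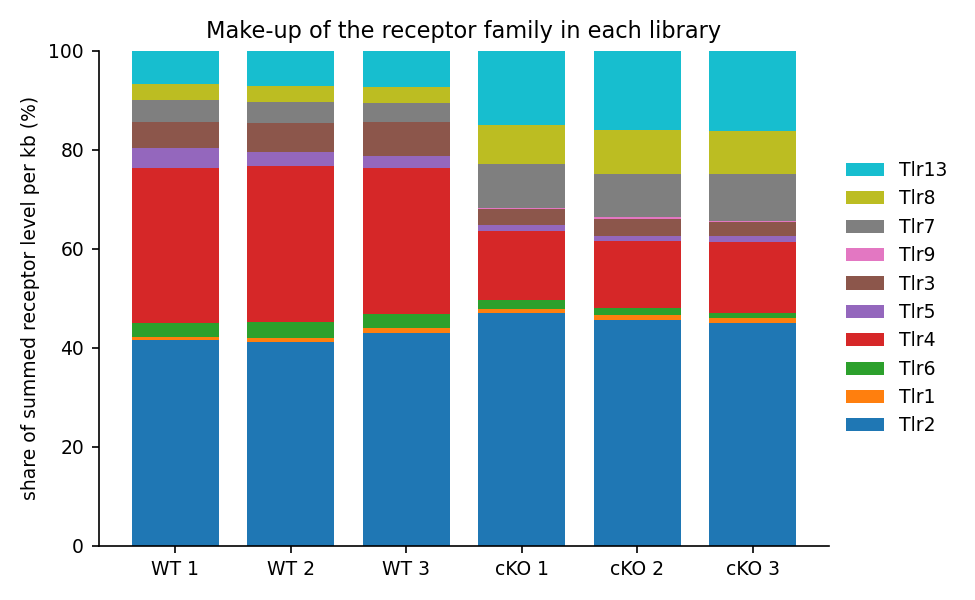
Share of each receptor in the summed level per kb of deposited gene length of the 10 receptors, in percent, for each of the 6 libraries. The libraries of a group are alike. The segment of Tlr4 is smaller in cKO (13.6% to 14.2%) than in WT (29.5% to 31.6%), and those of Tlr7, Tlr8 and Tlr13 are larger.

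Since 3 of the receptors lie on the X chromosome and the groups differ in Xist and Y-linked transcripts, X-linked genes were described as a class. Of 544 tested X-linked genes, 23.0% were called higher and 21.5% lower, beside 20.0% and 19.0% of 16573 autosomal genes. Their median log2 fold change was -0.00239, beside 0.00804 for autosomal genes. With a log2 fold change of at least 1 as well, 6.99% of the X-linked and 6.55% of the autosomal genes were higher. A log2 fold change of at least 2.5 was found in 23 X-linked genes (4.23%) and 346 autosomal genes (2.09%). This limit lies just below the values of Tlr7, Tlr8 and Tlr13, from 2.74 to 2.95, which are themselves 3 of these 23. The contrast between the classes was not tested, nor was the part of X linkage in the values of these 3 receptors.

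**Figure D4:**
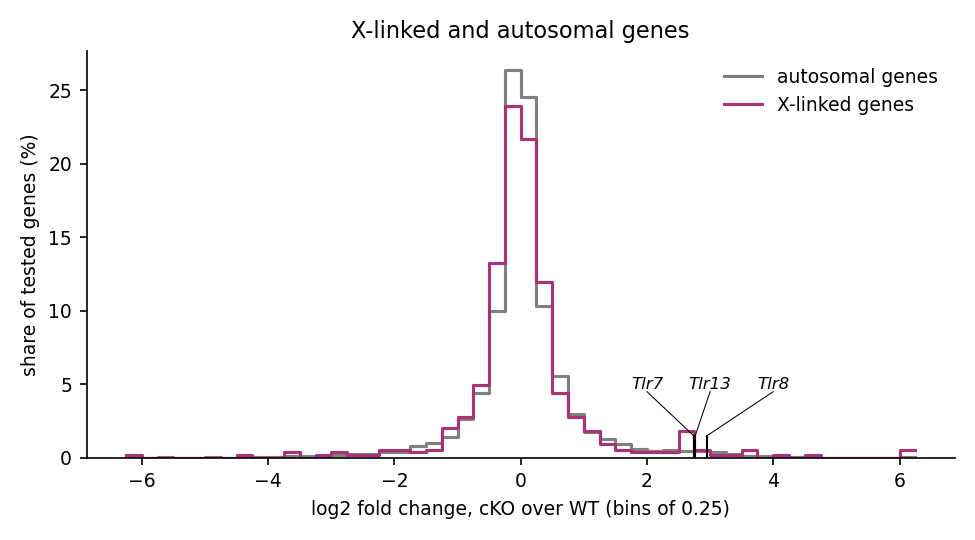
Distribution of log2 fold changes, cKO over WT, in bins of 0.25, as a percentage of the 544 X-linked (purple) and 16573 autosomal (grey) tested genes. Values beyond the ends of the axis are counted in the outermost bins. Both distributions centre near 0. X-linked genes are more frequent from 2.5 to 2.75 (1.84% and 0.440%), a bin that holds Tlr7. From 2.75 to 3, the bin of Tlr13 and Tlr8, the shares are closer (0.551% and 0.434%). Both bins include these receptors themselves. X-linked genes are less frequent in the bin from 2.25 to 2.5 (0.368% and 0.555%) and in the bin that starts at 3 (0.184% and 0.404%). Higher bins go both ways. Tlr7, Tlr13 and Tlr8 are marked at 2.74, 2.76 and 2.95.

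The start regions of the receptor genes were read for short motifs known from myeloid and inflammatory genes. The RefSeq table (GRCm38.p6) held 8 of the 10 receptors, with 10 sequences in all, and no entry for Tlr4 or Tlr7. In the 250 bases before the start, on both strands, GAGGAA, the core bound by PU.1, occurred in 4 of the 10 receptor sequences, 1 each of Tlr1, Tlr8, Tlr9 and Tlr13, and in 23.4% of 32544 promoter sequences. TGANTCA, the AP-1 core, occurred only before Tlr9 among the receptors and in 6.73% of promoters. GAAA followed by any 2 bases and GAAA, the element of interferon regulatory factors, occurred before Tlr6, at 2 overlapping places, and in 2.98% of promoters, and GGGA followed by any 2 bases and TTCC, an NF-kB core, before Tlr3 and in 1.21%. A match describes letters and not a bound site. Among the 6 receptors with a log2 fold change of at least 1, the sequence of Tlr2 and the other sequence of Tlr1 held no GAGGAA, and Tlr7 had no entry. A link between the motif and the fold change was not tested. The 4 sequences with GAGGAA are printed because their genes are among these 6 receptors. They match GRCm39 at the positions given and run 5′ to 3′ on the strand of the gene up to the deposited start, with GAGGAA or its complement TTCCTC and, in Tlr9, TGANTCA in capitals.

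Tlr1, chr5:65090907-65091151, minus strand: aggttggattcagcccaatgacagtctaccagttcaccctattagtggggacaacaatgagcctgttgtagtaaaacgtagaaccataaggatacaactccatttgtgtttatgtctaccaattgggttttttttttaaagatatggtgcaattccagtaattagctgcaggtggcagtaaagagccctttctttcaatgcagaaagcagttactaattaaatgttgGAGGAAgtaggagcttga
Tlr8, chrX:166047326-166047575, minus strand: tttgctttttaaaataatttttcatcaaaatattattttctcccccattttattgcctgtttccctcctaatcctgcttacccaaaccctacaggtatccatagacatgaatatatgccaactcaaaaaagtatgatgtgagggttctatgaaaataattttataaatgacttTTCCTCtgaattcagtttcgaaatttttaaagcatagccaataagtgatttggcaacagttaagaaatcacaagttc
Tlr9, chr9:106099547-106099796, plus strand: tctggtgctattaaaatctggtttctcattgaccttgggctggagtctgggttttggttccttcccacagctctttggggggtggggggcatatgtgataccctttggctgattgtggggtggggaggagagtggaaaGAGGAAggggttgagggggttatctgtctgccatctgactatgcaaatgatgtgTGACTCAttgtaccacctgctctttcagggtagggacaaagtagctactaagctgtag
Tlr13, chrX:105186631-105186809, plus strand: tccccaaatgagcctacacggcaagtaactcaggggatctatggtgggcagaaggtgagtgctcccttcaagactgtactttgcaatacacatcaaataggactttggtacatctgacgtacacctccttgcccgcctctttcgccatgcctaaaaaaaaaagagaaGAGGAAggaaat

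In these sequences GAGGAA began 23 bases before the RefSeq start in Tlr1, 112 in Tlr9 and 83 in Tlr13. In Tlr8 it lay on the opposite strand, from 77 to 72 bases before the start. The distances thus had no common position.

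The partners of the receptors were described with 9 lists of 78 genes in all, of which 75 were tested. Of these, 38 were higher in cKO, 10 were lower and 27 did not pass the test, beside 20.1% higher and 19.2% lower among all tested genes. Their median log2 fold change was 0.34. With a log2 fold change of at least 1 as well, 20 were higher and 1 was lower. The differences were unevenly spread along the pathway, with large ones among surface partners, proteases and a few adapters and transcription factors, and small ones among the kinases.

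Of 6 co-receptors and ligand-handling proteins, 5 were higher and 0 lower, with a median log2 fold change of 2.14. Among these 5, Ly86, named after its values were seen, passed the filter only through the cKO libraries. It had 0, 6 and 4 counts in WT and 25, 37 and 34 in cKO. With at least 10 counts required in every library, 4 of the list were higher. Cd36, a scavenger receptor that presents diacylated lipopeptides to Tlr2 and Tlr6, had 71.6 ± 4.69 CPM in WT and 419.1 ± 11.2 in cKO (SD, n = 3 each). Cd14 had 72.7 ± 5.56 and 241.6 ± 3.55 CPM, a log2 fold change of 1.73 that lay next to that of Tlr2 (1.72). Cd180, a Toll-like receptor relative without a TIR domain, was higher by 3.19 on the log2 scale. Ly96 (MD-2), which makes Tlr4 able to bind LPS, had 6.01 ± 0.588 CPM in WT and 6.27 ± 0.972 in cKO, and no difference was detected (log2 fold change 0.06, SE 0.15, edgeR adjusted p = 0.805). The transcript of the surface protein that delivers LPS was thus higher in cKO, while no difference was detected for the one that completes its binding site.

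Of 8 chaperones and trafficking proteins, 3 were higher and 1 was lower, with a median of 0.03. Unc93b1, which carries the endosomal receptors out of the endoplasmic reticulum, had 42.9 ± 1.30 CPM in WT and 113.4 ± 4.23 in cKO, a log2 fold change of 1.40. Tasl, an adapter that links the endosomal receptors to Irf5, was higher by 2.58 and Cnpy3, a folding factor of several receptors, by 0.22. Hsp90b1 (gp96), the chaperone that folds most Toll-like receptors, was lower, with a log2 fold change of -0.26. The folding factors therefore did not follow the receptors in size of difference.

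All 5 proteases that cut endosomal receptors into their active form passed the test, 4 higher and 1 lower, with a median of 1.01. Ctss (cathepsin S) had 76.2 ± 3.48 CPM in WT and 683.5 ± 13.9 in cKO, a log2 fold change of 3.16. Lgmn (asparagine endopeptidase) was higher by 1.32 and Ctsb by 1.01 on the log2 scale. Ctsk, the cathepsin best known from osteoclasts, was lower, with a log2 fold change of -0.41. Of 7 osteoclast markers 5 were tested. Atp6v0d2 (21.3 CPM in WT and 76.6 in cKO) was 1 of 2 that were higher, and Mmp9 (21.9 and 3.05 CPM) was lower.

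Of 6 adapters, 3 were higher and 1 was lower, with a median of 0.61. Myd88, shared by all receptors except Tlr3, had 27.3 ± 0.789 CPM in WT and 37.2 ± 0.326 in cKO, a log2 fold change of 0.45, the same as that of Tlr4. Ticam1, the adapter of Tlr3 and of endosomal Tlr4, was lower, with 28.2 ± 1.99 and 22.4 ± 1.41 CPM (log2 fold change -0.33, edgeR adjusted p = 0.00249). Ticam2 (TRAM), which joins Tlr4 to Ticam1, was a low transcript and was higher by 1.84. Pik3ap1 (BCAP), an adapter of B cells and macrophages, had 10.0 ± 1.72 and 98.6 ± 5.83 CPM, a log2 fold change of 3.30. The adapters Myd88 and Ticam1, both of which serve Tlr4, thus differed in opposite directions.

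Among 15 kinases and ubiquitin ligases, 6 were higher and 3 were lower, with a median of 0.06, and 0 reached a log2 fold change of 1 in either direction. The higher ones with the smallest p were Ikbkb (0.51), Tbk1 (0.47) and Ikbkg (0.36), kinases or scaffolds of the NF-kB and interferon branches. Map3k7 (-0.15) and Tab3 (-0.25) of the TAK1 complex and the ligase Traf6 (-0.20) were lower, but 1 of this list was lower without cKO replicate 1 or 2, and 0 without cKO replicate 3. Of 9 tested inhibitors, 2 were higher, Irak3 (0.89), which halts Irak signalling, and Il1rl1 (0.53), while Nfkbia (-0.23) and Tnfaip3 (-0.15) were lower, 1 of them when WT replicate 1 or 3 or cKO replicate 2 or 3 was left out. Of all tested genes 20.1% were called higher and 19.2% lower. The counts of inhibitors, and of kinases and ligases called lower, were near these shares. Of 6 transcription factors, 3 were higher, Irf8 (2.72), Irf5 (1.29) and Irf7 (1.44), and Rela, Nfkb1 and Irf3 did not pass the test. The transcription factors that were higher are all interferon regulatory factors, of which Irf8 is a lineage factor of myeloid cells.

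**Figure D5:**
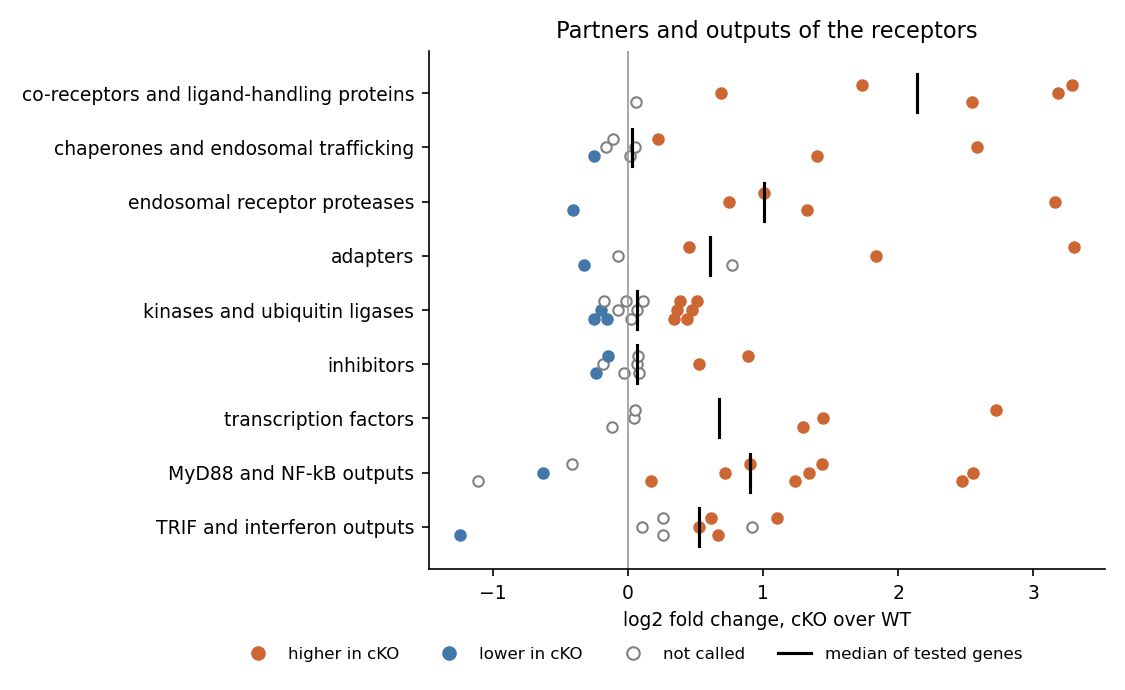
Log2 fold change, cKO over WT, of the 75 tested pathway genes in 9 lists, with genes called higher or lower filled, genes not called open, and the median of each list as a black bar. Co-receptors have the highest median (2.14), and all kinases and ubiquitin ligases lie between -0.25 and 0.51.

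Transcripts that receptor signalling is known to induce were also read. Of 11 tested genes on the Myd88 and NF-kB side, 8 were higher and 1 was lower, with a median log2 fold change of 0.91. Il6 had 250.4 ± 25.9 CPM in WT and 590.0 ± 36.9 in cKO, a log2 fold change of 1.24, and the neutrophil chemokines Cxcl2 and Cxcl1 were higher by 1.34 and 0.72. Ptgs2 (COX-2) was lower, with 1350 ± 81.9 and 871.1 ± 78.5 CPM (log2 fold change -0.63). Tnf and Il1b, chosen after their values were seen, were low throughout. Tnf had 38, 41 and 42 counts in WT and 181, 204 and 263 in cKO, and Il1b had 8, 0 and 26 counts in WT and 43, 53 and 109 in cKO.

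On the TRIF and interferon side, 4 of 9 tested genes were higher and 1 was lower, with a median of 0.52. Ccl5 had 132.0 ± 22.0 CPM in WT and 202.1 ± 10.1 in cKO, a log2 fold change of 0.61, and the antiviral genes Rsad2 (1.10) and Ifit3 (0.52) were higher. The groups overlapped for Rsad2, with 2.99 CPM in WT replicate 3 and 2.89 in cKO replicate 2. They also overlapped for Ifit3, with 8.32 CPM in WT replicate 3 and 7.20 in cKO replicate 3. Cxcl10 was lower, with 71, 74 and 100 counts in WT and 18, 32 and 51 in cKO (log2 fold change -1.25). Ifnb1 had 0 counts in every library, which allows up to 3 counts in each, or 0.0603 to 0.0758 CPM. The counts of this list moved when libraries were left out, with 1 gene higher instead of 4 without WT replicate 1, WT replicate 2 or cKO replicate 1, and 0 lower without WT replicate 3 or cKO replicate 1.

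The remaining 2 Toll-like receptor genes of the mouse that were looked up, Tlr11 and Tlr12, had 0 counts in every library. Limits drawn from a count of 0 cover counting error only. Signals of further cell types beside these results were uneven. Of 10 neutrophil markers, 3 were tested and all 3 were higher, beside 20.1% higher and 19.2% lower among all tested genes. Csf3r, which macrophages also carry, had 0.170 CPM in WT and 3.32 in cKO, S100a8 had 1.07 and 3.29, and Camp had 5.12 and 7.21. With 5, 7 and 10 counts in WT and 117, 144 and 161 in cKO, Csf3r passed the filter through the cKO libraries. The list summed to 4.95 to 8.10 CPM in WT and 12.9 to 14.8 in cKO. S100a9 had 0 counts in every library, and Ly6g, Mpo, Ltf and Cxcr2, not tested, had 0 counts in every cKO library. Of 5 tested endothelial markers 4 were lower and 1 was higher, beside the same shares of all tested genes. With at least 10 counts required in every library, 1 was lower. Emcn had 1.11 CPM in WT and 0.0147 in cKO, and Kdr had 1.35 and 5.55. With 56, 59 and 35 counts in WT and 0, 0 and 2 in cKO, Emcn passed the filter only through the WT libraries. Their part in the receptor values was not tested.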

How the data were processed

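Bulk RNA sequencing of 6 libraries was analysed, 3 WT and 3 cKO, grouped by the genotype in the sample labels. The authors made paired-end 150 bp reads with a directional kit, aligned them with HISAT2 2.0.5 to GRCm39 and deposited raw counts per gene from featureCounts (1.55.0-p3 per the labels, another release in the study's methods), with gene lengths. The strand setting of the counting is not given in the sources used here, so reads of antisense partners may be mixed. Between 63.4% and 65.7% of counts from 1 to 10 were even numbers, a sign that mates may have been counted separately. Library totals lay between 39566835 and 49734046 counts.

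The test was the edgeR 4.0.16 quasi-likelihood test (R 4.3.3, filterByExpr, TMM, genotype as the only term), with Benjamini-Hochberg adjustment over 17146 tested genes and a threshold of 0.05. The biological coefficient of variation was 8.36%. CPM are counts per 1000000 of TMM-scaled library size. Procedures were tested on simulated data. Of genes simulated with a log2 fold change of 0.5 in size, edgeR called 31 of 62. With a size of 1 it called 46 of 66, with 2 it called 62 of 67, and with 0 it called 17 of 16642. Replicates of a group differed by more than sampling noise (chi-square per gene 4.71 to 13.0). Alternatives were DESeq2 1.42.0, limma-voom 3.58.1, other scaling, filters, a fold change limit, halved counts, a replicate block and each library left out.

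The 10 receptors and Gsdmd were always named, with Cd14, Ly96, Myd88, Ticam1 and Unc93b1. Up to 3 higher and 3 lower genes per pathway list were named by the smallest p. Of the marker lists, Csf1r, Adgre1, Ptprc, Dmp1, Sost, Xist, the Y-linked genes and up to 2 others per list were named, and 3 nearest genes for 2 receptors. Further genes given to describe an absent or shared marker were chosen after their values were seen. The receptors, lists and tests were chosen with earlier results of these data known. Start sequences came from RefSeq (GRCm38.p6) and were located in GRCm39 by exact match. Gene coordinates are those of the deposited table, and 76.7% of the 55980 genes on the same chromosome in GENCODE M39 share a start or an end.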

Additional observations from a re-analysis of the deposited data

How the results depend on the processing

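Depth limits Tlr9 and Tlr1 most, with 2 to 6 and 37 to 52 counts per WT library, and no alternative removes the shared sex and macrophage signal. Over 15 alternatives, Tlr1, Tlr2, Tlr7, Tlr8 and Tlr13 kept direction and call, and Tlr9 did in the 14 in which it was tested (not with at least 10 counts in every library). No receptor changed sign. Tlr3, Tlr4 and Tlr6 passed adjusted p but not a limit of 1 on the log2 fold change, which left 6 receptors higher instead of 9, 20 pathway genes higher and 1 lower instead of 38 and 10, and 1124 genes higher and 796 lower of all tested instead of 3445 and 3285. Tlr5 ranged from 0.05 to 0.36 (adjusted p from 0.102 to 0.862).

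With libraries left out in turn, the receptors called higher numbered 8 to 9 and lower 0 to 0. Pathway genes called higher numbered 34 to 40 and lower 6 to 10, the lowest without cKO replicate 3. Of all genes 2942 to 3407 were higher and 2796 to 3375 lower, and of the markers 25 to 26 and 11 to 13. The number of receptors at another rank of level was 0 to 2 in WT (2 without WT replicate 1 or 3) and 0 to 0 in cKO. Merged exon lengths changed 4 ranks in WT and 2 in cKO. With at least 10 counts in every library, 6 markers were lower instead of 13, since the 4 Y-linked and 3 of the endothelial markers then fell out of the test. Other scaling moved the median of all genes by -0.0106 (DESeq2 size factors) and 0.0218 (library size only).

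Replicate numbers did not pair the samples: deviations of same-numbered libraries correlated at 0.000312, 0.00469 and -0.0110. With the replicate block, 9 receptors were higher and 0 lower, 37 pathway genes higher and 10 lower, 26 markers higher and 12 lower, and 3298 genes higher and 3098 lower.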
